A study of Mus musculus with 2 samples.

Results

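The 40 genes described here encode signalling proteins of the TGF-beta superfamily: secreted ligands, their receptors and coreceptors, the SMAD proteins that carry the signal to the nucleus, and extracellular proteins that store or block the ligands. They were chosen by symbol, from a list of the pathway's best known genes, and all 40 were found among 43346 mouse gene rows, of which 21474 are protein-coding. The values come from total RNA sequencing of mouse liver of the B6NCrl strain at embryonic day 14.5, with no treatment or genetic change named in the labels. There were 2 biological replicates in 1 group. Per the labels, replicate 1 was a liver collected on 17 July 2014 and replicate 2 one collected on 15 July 2014, so replicate and day of collection cannot be told apart. The labels call each sample a single liver and also give its sex as pooled male and female. With 1 group there was no comparison between conditions and no p-value. Values are given for each liver or as mean ± SD (n = 2).

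In this pathway a dimeric ligand brings together type II and type I receptors, both of them serine/threonine kinases. The type I receptor then phosphorylates receptor SMADs, which join SMAD4 and act on genes in the nucleus. TGF-beta, activin and Nodal act mainly through SMAD2 and SMAD3, and BMPs act mainly through SMAD1, SMAD5 and SMAD9. In liver, TGF-beta signalling is known for its part in hepatoblast fate and in matrix production by stellate cells, and BMP signalling for its part in early liver growth and in control of the iron hormone hepcidin.

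Replicate 1 held 39998450 and replicate 2 held 28848861 estimated reads, of which 37059776 and 26908926 lay on mouse genes. Transcripts of hepatoblasts and of red cell precursors were abundant in both livers: Afp stood at 6417 and 6856 TPM and Hbb-bs at 80700 and 77948 TPM. TPM is a length-scaled share of transcripts, with the same total over all rows in each library. All 7 endothelial markers and all 7 stellate and mesenchymal markers reached 1 TPM in both livers. Their summed levels were 51.4 and 52.1 TPM for endothelial cells and 135.5 and 149.9 TPM for stellate and mesenchymal cells. The 6 megakaryocyte and platelet markers summed to 533 and 665 TPM and each was higher in replicate 2. Of the 5 neutrophil markers, which summed to 2407 and 1727 TPM, the 4 that passed the filter on low values were lower in replicate 2. The 6 erythroid markers summed to 83108 and 80465 TPM, the 6 hepatoblast markers to 9985 and 10748 TPM, the 6 macrophage markers to 148.3 and 146.5 TPM and the 4 mesothelial markers to 8.39 and 9.12 TPM. In bulk tissue, fewer cells of a type and less RNA per cell cannot be told apart, and the part of cell makeup in the values below was not tested.

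Most of the pathway was transcribed at low levels. In both livers 22 of the 40 genes reached 1 TPM, against 49.2% of all protein-coding genes. A further 14 were below 1 TPM in both, and Tgfb2, Tgfb3, Gdf15 and Acvrl1 reached it in 1 liver only. The median over the 40 genes in replicates 1 and 2 was 1.12 and 1.67 TPM, beside 0.99 and 1.07 TPM over all protein-coding genes. Among genes that reached this level in each liver, the median was 2.51 TPM for the 22 pathway genes and 10.2 TPM for all protein-coding genes. The sum over all 40 came to 85.2 and 94.9 TPM in replicates 1 and 2. Receptor SMADs took 20.6 and 22.1 TPM of it and the 2 coreceptors 17.4 and 19.8 TPM. Type I receptors summed to 11.02 and 12.3 TPM, and type II receptors to 8.28 and 9.51 TPM. Among ligands, the BMP and GDF group summed to 9.30 and 11.8 TPM, TGF-betas to 5.19 and 3.75 TPM, and activin and inhibin subunits to 3.07 and 3.16 TPM.

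**Figure D1:**
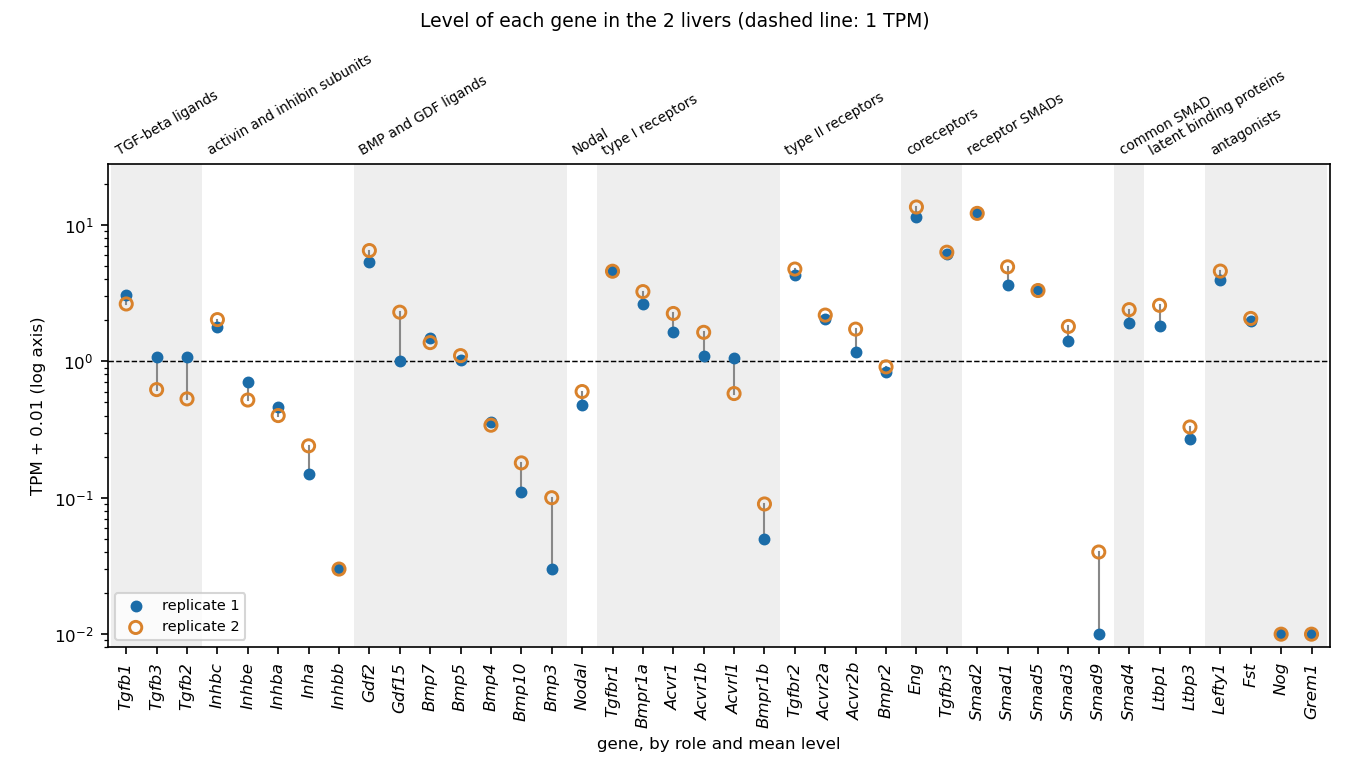
Level of each of the 40 genes in replicate 1 (filled) and replicate 2 (open), as TPM plus 0.01 on a log axis, ordered by role and mean level. Eng and Smad2 stand highest, between 11.3 and 13.5 TPM, and Nog and Grem1 have no read in either liver.

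Tgfb1 was the highest of the 3 TGF-beta ligand genes in both livers. It lies on chromosome 7 (25687002 to 25705077, plus strand) and encodes the isoform best known from blood cells, platelets and fibrosis. It stood at 3.07 and 2.62 TPM in replicates 1 and 2, from 203 and 158 reads. Scaled for depth with TMM factors, its reads stood at a ratio of 1.03 between replicate 2 and replicate 1 (95% counting interval 0.833 to 1.28), so its reads did not share the lower TPM of replicate 2. The effective length that the authors' estimate gave to Tgfb1 was 1583 nucleotides in replicate 1 and 2076 in replicate 2. In replicate 1 a short retained-intron transcript, Tgfb1-203, was assigned 10.95 reads and 21.6% of the gene's TPM, and in replicate 2 none.

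Tgfb2 and Tgfb3 stood lower and, by gene TPM, could not be put in order. Tgfb2 (chromosome 1, 186622792 to 186705989, minus strand) was at 1.06 and 0.52 TPM, from 78 and 40 reads. Tgfb3 (chromosome 12, 86056745 to 86079041, minus strand) was at 1.06 and 0.61 TPM, from 145 and 58 reads. Both are known from mesenchymal and epithelial tissues of the embryo, and both were lower in replicate 2. For Tgfb3 the scaled read ratio was 0.530 (0.384 to 0.724), the lowest among the pathway genes with at least 50 reads. For Tgfb2 it was 0.680 (0.452 to 1.008), and its interval includes 1. The effective length of Tgfb2 was 1753 nucleotides in replicate 1 and 2640 in replicate 2. Retained-intron transcripts took part of its TPM: Tgfb2-205 held 26.8% and 46.6%, and Tgfb2-202 held 40.5% and 0%. Its coding transcripts were at 0.24 and 0.13 TPM (Tgfb2-206) and 0.11 and 0.15 TPM (Tgfb2-201). Each was below Tgfb3, which has 1 annotated transcript, a coding one. Tgfb1 held 64.5% ± 7.6 (SD, n = 2) of the TPM of the 3 genes and 54.7% of their reads.

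Among the activin and inhibin subunit genes, those of the liver-type subunits had the highest TPM in both livers. Inhbc, which encodes the beta C subunit, stood at 1.77 and 2.01 TPM (138 and 109 reads) and was the only 1 of the 5 to reach 1 TPM. Inhbe, its neighbour on chromosome 10, encodes the beta E subunit and was at 0.69 and 0.51 TPM (59 and 30 reads). The genes of the subunits that form the classical activins were lower. Inhba was at 0.45 and 0.39 TPM (30 and 16 reads), and Inhbb at 0.02 TPM in both livers (4 and 3 reads). Inha, the alpha subunit that turns an activin into an inhibin, was at 0.14 and 0.23 TPM from 8 and 9 reads. The ranges of neighbouring genes in this order did not overlap, but Inha and Inhbb rest on fewer than 10 reads a liver. Inhbc held 60.6% ± 4.2 (SD, n = 2) of the group's TPM.

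Gdf2 was the highest of all ligand genes in the set. It encodes BMP9, a ligand made mainly in liver that acts on endothelial cells through ACVRL1 and endoglin. It lies on chromosome 14 (33941039 to 33947198, plus strand) and stood at 5.36 and 6.47 TPM in replicates 1 and 2, from 647 and 543 reads. The scaled read ratio was 1.113 (0.991 to 1.249). Gdf2 held 56.3% ± 1.9 (SD, n = 2) of the TPM of the 7 BMP and GDF genes. Gdf10, outside the set, stood higher, at 8.37 and 8.26 TPM, so this rank and share hold for the set and not for the family. Bmp10, whose product binds the same receptors and is known from the heart, was at 0.10 and 0.17 TPM, from 5 and 6 reads.

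The other BMP genes of the set stood at or below 1.5 TPM. Bmp7, best known from kidney and bone, was at 1.46 and 1.36 TPM (218 and 117 reads). Its scaled reads were lower in replicate 2 (ratio 0.712, 0.564 to 0.895), and its effective length was 3571 nucleotides in replicate 1 and 2967 in replicate 2. Bmp5 was at 1.02 and 1.09 TPM (158.4 and 117.6 reads). Of its exon bases 46.7% overlap Gm26903 on the opposite strand, which had 5.75 and 10.8 reads, and strand-specific counting is not stated, so reads of the pair cannot be told apart. Bmp4, known from the mesenchyme that induces the liver, was at 0.35 and 0.33 TPM (16 and 19 reads). Bmp3, whose product acts against other BMPs, was at 0.02 and 0.09 TPM (2 and 8 reads).

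Gdf15 showed the largest ratio between the livers among the 23 pathway genes with a mean of 1 TPM and 50 reads. Its product is a stress-induced hormone that signals through GFRAL, a receptor of the hindbrain. It lies on chromosome 8 (70629393 to 70632456, minus strand) and stood at 0.99 and 2.28 TPM in replicates 1 and 2, from 54 and 87 reads. The scaled read ratio was 2.14 (1.504 to 3.06). On the log2(TPM + 1) scale, which understates differences of low genes, the difference was 0.72. It was the only 1 of the 23 to differ 1.5-fold on that scale, against 1.82% of 11484 genes under the same filter. With a mean of 1.64 TPM its range over the livers overlaps that of Bmp7. Gfral, the receptor gene, had no read in either liver.

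Nodal, a ligand of the early embryo, was at 0.47 and 0.59 TPM (39 and 34 reads). Lefty1, which encodes a secreted antagonist of Nodal, stood higher and is described with the antagonists. Of other genes of this branch, Foxh1, a DNA-binding partner of SMAD2, was at 1.41 and 1.74 TPM and Gdf3, a ligand related to Nodal, at 1.76 and 2.28 TPM. Dand5, a further Nodal antagonist, was at 2.24 and 2.09 TPM. Tdgf1, the coreceptor Cripto, had no read in either liver, which allows up to 0.039 and 0.057 TPM in the 2 livers at 3 reads. Foxh1, Gdf3, Dand5 and Tdgf1, all outside the set, were singled out after their values were seen. Of other genes on the further lists, Lefty2 and Cer1 had no read in either liver. The receptor gene Acvr1c was at 0.01 and 0.12 TPM (4 and 3 reads).

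**Figure D2:**
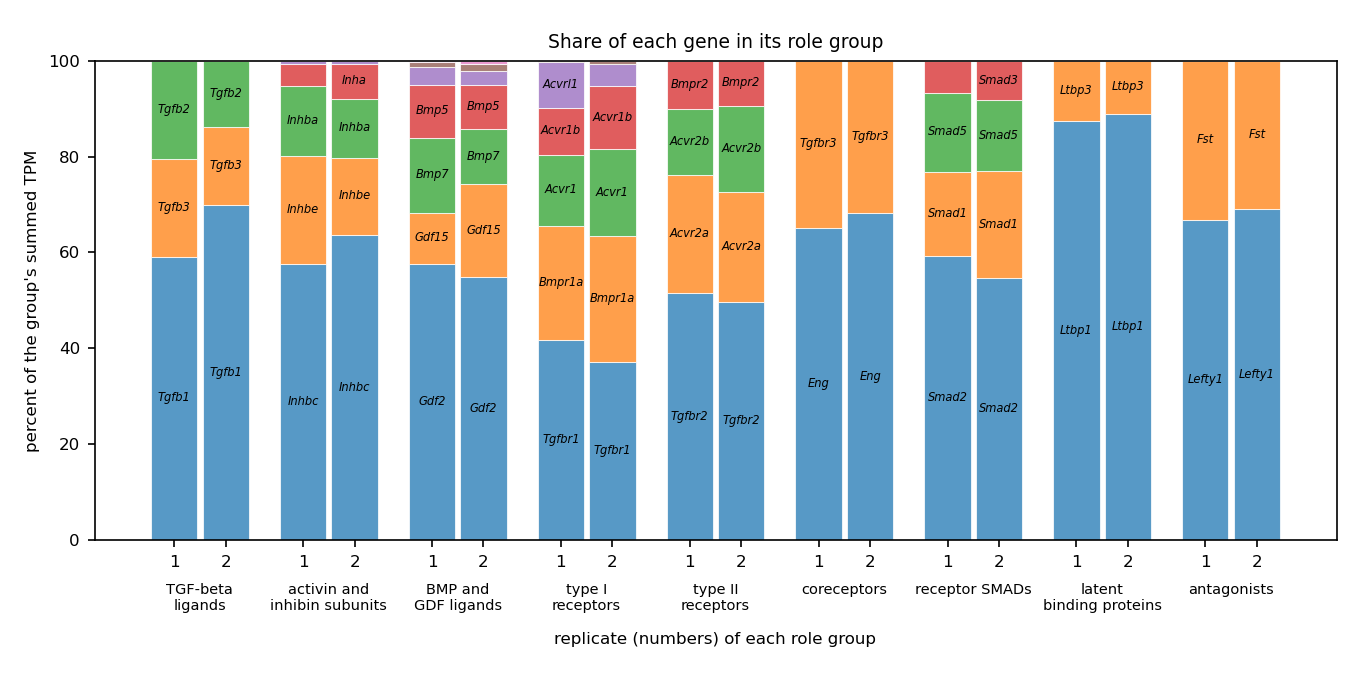
Percent of the summed TPM of each role group that each gene held in replicate 1 and replicate 2, stacked from the highest gene at the bottom. Groups hold genes of the 40 only. The same gene leads its group in both livers, from 39.4% on average for Tgfbr1 to 88.1% for Ltbp1.

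Of the type I receptor genes, Tgfbr1 was the highest. It encodes ALK5, the receptor that phosphorylates SMAD2 and SMAD3 on TGF-beta binding. It stood at 4.60 and 4.56 TPM (1016 and 717 reads), a difference within counting error (scaled read ratio 0.936, 0.849 to 1.03). Tgfbr1 held 39.4% ± 3.3 (SD, n = 2) of the TPM of the 6 type I receptor genes. Bmpr1a, the BMP receptor ALK3, was at 2.62 and 3.23 TPM (640.5 and 549.8 reads), with a scaled ratio of 1.14 (1.013 to 1.28). Acvr1, the receptor ALK2 of BMPs and activins, was at 1.64 and 2.23 TPM (190 and 175 reads). Acvr1b, the activin and Nodal receptor ALK4, was at 1.08 and 1.62 TPM (194 and 203 reads). Its scaled reads stood at a ratio of 1.39 (1.13 to 1.70), the second highest of the genes with at least 50 reads. The ranges of these 4 genes did not overlap.

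Acvrl1 and Bmpr1b closed the order. Acvrl1 encodes ALK1, the endothelial receptor of BMP9, and was at 1.04 and 0.57 TPM in replicates 1 and 2. It had 81 and 50 reads, with a scaled ratio of 0.819 (0.564 to 1.18), while its effective length was 1855 and 3042 nucleotides. The TPM difference is thus larger than the difference in reads, and the interval of the reads includes 1. Bmpr1b, the receptor ALK6 known from limb cartilage, was at 0.04 and 0.08 TPM from 6 and 4 reads.

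Of the type II receptor genes, Tgfbr2, which encodes the receptor that binds TGF-beta, stood first. It was at 4.26 and 4.73 TPM (829 and 637 reads), with a scaled read ratio of 1.02 (0.917 to 1.13). It held 50.6% ± 1.2 (SD, n = 2) of the TPM of the 4 genes. The pair that binds TGF-beta, Tgfbr1 and Tgfbr2, therefore stood at similar levels, between 4.26 and 4.73 TPM, and their ranges overlapped. Acvr2a, a receptor of activins and BMPs, was at 2.04 and 2.17 TPM (475.9 and 351.9 reads). It shares 446 bases of exon with Orc4 on the opposite strand, which stood at 29.9 and 32.8 TPM. Acvr2b was at 1.15 and 1.71 TPM (78 and 80 reads), and Bmpr2, the BMP receptor mutated in inherited pulmonary hypertension, at 0.83 and 0.90 TPM (442 and 334 reads). Bmpr2 had more reads than Acvr2b but a lower TPM over an effective length of 12748 and 12800 nucleotides.

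Both annotated forms of the TGF-beta type II receptor were found, and they differ by a single coding exon. Transcript Tgfbr2-202 holds an exon of 75 bases at chr9:116158271-116158345 (GRCm38, minus strand), which Tgfbr2-201 lacks. It is shown here because the share of the 2 forms rests on it. Capitals mark the exon and lower case marks the 18 bases on each side in the spliced transcript.
Tgfbr2 cassette exon: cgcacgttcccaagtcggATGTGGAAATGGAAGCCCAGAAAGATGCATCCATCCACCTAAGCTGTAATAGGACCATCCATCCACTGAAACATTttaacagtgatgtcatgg
Tgfbr2-201 held 49.6% of the gene's TPM in replicate 1 and 62.4% in replicate 2, from 407.6 and 394.8 reads. Tgfbr2-202, with the exon, held 50.4% and 37.7%, from 421.4 and 242.2 reads. The 2 forms were thus close to even in replicate 1, and Tgfbr2-201 led in replicate 2. The lengths in the deposited tables, 4710 and 4785 nucleotides, differ by this exon alone, so the split rests on the reads that touch it or its junctions. Transcript shares are estimates of a model, and the tables give no count of those reads.

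The coreceptor genes stood high. Eng encodes endoglin, a coreceptor for BMP9 and TGF-beta on endothelial cells, and was at 11.3 and 13.5 TPM in replicates 1 and 2, from 1451 and 1283 reads. It had the highest mean of the 40 genes, 12.4 ± 1.5 TPM (SD, n = 2), above 78.0% of protein-coding genes. Its range overlapped that of Smad2. The scaled read ratio was 1.17 (1.09 to 1.26). Single endothelial markers differed in both directions: the scaled read ratio was 1.12 (1.006 to 1.24) for Cdh5, 0.787 (0.691 to 0.894) for Tek and 0.910 (0.848 to 0.977) for Lyve1. For Pecam1, Kdr, Stab2 and Emcn the interval included 1. Tgfbr3, which encodes betaglycan, a coreceptor for TGF-beta and inhibin, was at 6.08 and 6.29 TPM (1500 and 1094 reads; scaled ratio 0.967, 0.894 to 1.05). Eng held 66.6% ± 2.2 (SD, n = 2) of the pair's TPM and 51.6% of their reads.

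Eng was represented mainly by Eng-201, with 75.3% of its TPM in replicate 1 and 68.7% in replicate 2. Eng-205 followed with 14.8% and 24.7%, from 231.3 and 320.1 reads. Its coding sequence lacks 3 bases at the start of exon 2, at chr2:32657516-32657518 (GRCm38, plus strand). Capitals mark those bases, and lower case the 18 bases on each side in Eng-201; the site is shown because it is the only difference in the coding sequence.
Eng exon 2 start: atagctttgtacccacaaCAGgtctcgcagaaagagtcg
Eng-202 held 1.89% and 5.68% (26.1 and 65.1 reads). It keeps the last intron of 139 bases, at chr2:32681298-32681436, and has 1923 coding bases against 1959 in Eng-201. Eng-205 and Eng-202 held a larger share in replicate 2. Short noncoding forms held less there: Eng-203 had 6.64% and 0% (5 reads and none) and Eng-206 had 1.34% and 0.90%. Tgfbr3 was almost wholly Tgfbr3-201, with 98.3% and 100% of its TPM.

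**Figure D3:**
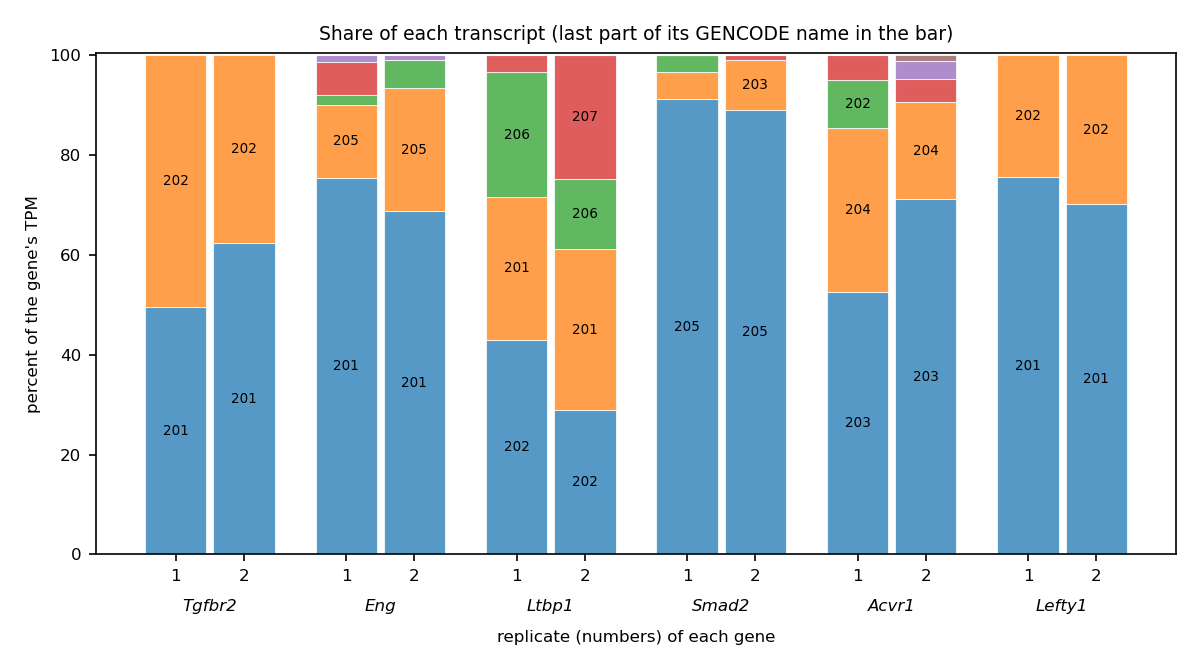
Percent of the gene's TPM held by each annotated transcript of 6 genes in replicate 1 and replicate 2, with the number of the transcript's GENCODE name in the bar where the share is above 7%. Smad2 is mostly 1 transcript, while Tgfbr2, Ltbp1 and Acvr1 are divided between several and differ in share between the livers.

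Among the receptor SMADs, Smad2, which carries TGF-beta, activin and Nodal signals, stood first. It was at 12.2 and 12.1 TPM (1327 and 910 reads) on chromosome 18 (76241580 to 76310963, plus strand). Smad3, its partner in the same branch, was at 1.39 and 1.79 TPM (274 and 260 reads). The BMP branch was divided between Smad1, at 3.63 and 4.91 TPM (456 and 429 reads), and Smad5, at 3.38 and 3.29 TPM (901 and 596 reads). Smad9 was barely detected, with 1 read in replicate 1 and 5 in replicate 2 (0.00 and 0.03 TPM). Smad2 held 57.0% ± 3.2 (SD, n = 2) of the TPM of the 5 genes, and Smad1, Smad5 and Smad9 held 35.6% ± 2.2 together. By reads, without scaling to length, Smad2 alone held 43.1% and Smad1, Smad5 and Smad9 held 46.4% on average. Smad2 and Smad3 together held the larger share by both measures. Smad4, the common partner, was at 1.90 and 2.38 TPM (261 and 227 reads), below Smad1, Smad2 and Smad5 in both livers.

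The length behind the level of Smad2 differs between annotations. Its main transcript, Smad2-205, held 91.2% and 89.0% of the gene's TPM and is 2857 nucleotides long in the deposited tables. In the later annotation M21 the same transcript is 8089 nucleotides long. Other genes share this limit. Inhbe-201 is 2135 nucleotides long as deposited and 5319 in M21, and Inhba-201 is 1957 and 6390. Tgfbr2-202 is 4785 and 8092, and Tgfbr2-201 is 4710 and 3476. What the M21 lengths would do to the levels, the order of the activin subunit genes or the Tgfbr2 shares was not tested. Smad2-203 lacks an exon of 90 bases on chromosome 18 (76286860 to 76286949), and its model also lacks the last coding exon and reads on past the end of the one before. It held 5.59% and 10.0%, from 34.4 and 42.6 reads. Leading transcripts of the other SMADs were Smad1-202 (100% and 98.6%), Smad5-201 (97.5% and 95.1%) and Smad3-201 (94.4% and 100%).

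SMAD genes differed between the livers in both directions by small amounts. Scaled reads were higher in replicate 2 for Smad1 (ratio 1.25, 1.09 to 1.43) and Smad3 (1.26, 1.06 to 1.496). They were lower for Smad2 (0.909, 0.835 to 0.990) and Smad5 (0.877, 0.790 to 0.974). For Smad4 the interval includes 1 (1.15, 0.961 to 1.38). Such intervals cover counting error only and do not measure how far livers of 1 group differ.

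Latent TGF-beta binding proteins anchor the inactive ligand in the matrix. Ltbp1 was at 1.80 and 2.56 TPM (356 and 301 reads) and held 88.1% ± 1.1 (SD, n = 2) of the pair's TPM. Ltbp3 was at 0.26 and 0.32 TPM (55.0 and 47.0 reads). Ltbp4, of the same family but outside the set, was at 2.40 and 2.05 TPM (374 and 236 reads). Its range overlapped that of Ltbp1, so the share above holds for the pair and not for the family. Ltbp2, also outside the set, was at 0.06 and 0.15 TPM. The scaled reads of Ltbp1 stood at a ratio of 1.12 (0.958 to 1.31), and its effective length was 4741 and 4053 nucleotides.

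Ltbp1 has a long and a short coding form that start at separate promoters, and transcripts of both were found. Ltbp1-201, with 5136 coding bases, held 28.6% and 32.4% of the gene's TPM (141.3 and 157.9 reads). Ltbp1-202, with 4023 coding bases, held 43.0% and 28.9% (154.0 and 102.3 reads). The short form led in replicate 1 and the long form in replicate 2. The remainder lay on noncoding transcripts, of which Ltbp1-206 held 25.0% and 14%, and Ltbp1-207 3.39% and 24.8% from 1.07 and 7.73 reads. The 250 bases before the RefSeq start site of each form are shown because the 2 forms use different ones. The upstream window is chr17:75005279-75005528 and the downstream window chr17:75178531-75178780 (both GRCm38.p6, plus strand), with CG dinucleotides in capitals.
Ltbp1 upstream promoter: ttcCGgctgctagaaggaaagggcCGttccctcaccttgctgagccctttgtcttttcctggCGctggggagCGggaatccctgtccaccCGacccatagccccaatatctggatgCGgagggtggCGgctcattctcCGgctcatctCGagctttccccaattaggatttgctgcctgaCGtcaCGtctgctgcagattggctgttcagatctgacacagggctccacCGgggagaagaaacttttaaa
Ltbp1 downstream promoter: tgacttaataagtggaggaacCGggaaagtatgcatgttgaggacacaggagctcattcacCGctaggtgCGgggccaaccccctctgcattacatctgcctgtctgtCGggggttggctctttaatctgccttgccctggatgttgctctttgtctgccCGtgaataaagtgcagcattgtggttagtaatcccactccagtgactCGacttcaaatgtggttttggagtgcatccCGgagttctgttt
The upstream start site lies 39 bases before the start of Ltbp1-201 and the downstream one 130 bases before that of Ltbp1-202. The upstream window has 12 CG dinucleotides and a GC content of 56.8%, and the downstream window 7 and 50.8%. Over 32851 windows of the same length the median was 6 CG dinucleotides and 52.4% GC, and 92.1% held at least 1. A CG reads the same on both strands. No measure of promoter use other than the transcript estimates was made.

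Of the 4 antagonist genes, 2 were transcribed. Lefty1 was at 3.96 and 4.57 TPM (210 and 161 reads), and Fst, which encodes the activin-binding protein follistatin, at 1.97 and 2.05 TPM (184 and 133 reads). Neither differed beyond counting error between the livers, with scaled ratios of 1.02 (0.823 to 1.25) and 0.958 (0.761 to 1.20). Lefty1 held 67.9% ± 1.6 (SD, n = 2) of the group's TPM. A retained-intron transcript, Lefty1-202, took 24.4% and 29.8% of the gene's TPM but only 9.32% and 11.9% of its reads. Nog and Grem1, which encode the BMP antagonists noggin and gremlin, had no read in either liver. At 3 reads this allows up to 0.045 and 0.065 TPM for Nog and up to 0.018 and 0.025 TPM for Grem1.

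Over the 23 pathway genes with a mean of 1 TPM and 50 reads, the livers differed by a median of 0.17 on the log2(TPM + 1) scale in either direction, against 0.13 over all 11484 such genes. Of the 23, 18 were higher and 5 lower in replicate 2, while 72.8% of all such genes were higher. The median of all genes on this scale was 0.10, so a small excess of higher values is shared by genes at large. On TMM-scaled reads the median log2 ratio over genes with at least 50 reads was 0.036 for 30 pathway genes and -0.0038 for all 13264. By that measure the interval excluded 1 upward in 6 of 30 pathway genes, Gdf15, Acvr1b, Smad3, Smad1, Eng and Bmpr1a, beside a background of 18.8% of all genes. It excluded 1 downward in 4 of 30, Tgfb3, Bmp7, Smad5 and Smad2, beside 20.1% of all genes. The intervals of the other 20 included 1.

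**Figure D4:**
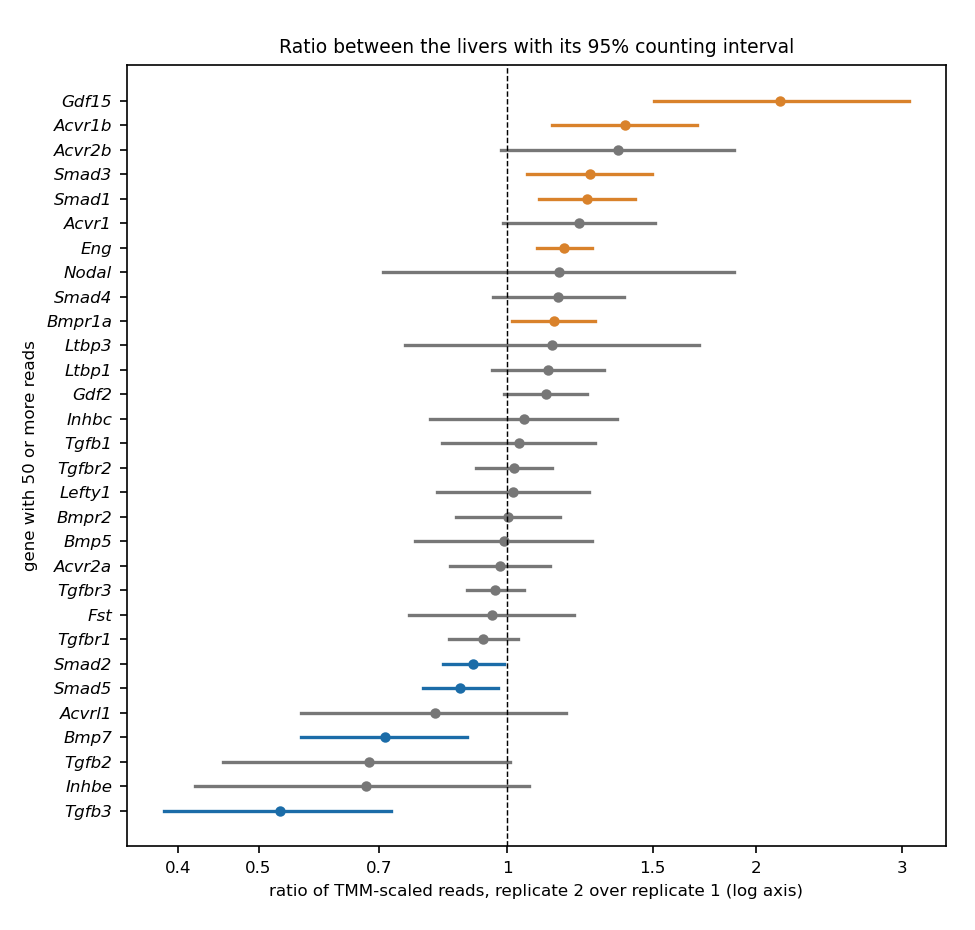
Ratio of TMM-scaled reads, replicate 2 over replicate 1, with its 95% counting interval on a log axis, for the 30 genes with at least 50 reads. Orange marks the 6 intervals above 1 and blue the 4 below 1, with Gdf15 highest at 2.14 and Tgfb3 lowest at 0.530.

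Other genes of the pathway were read from 8 lists. The counts at 1 TPM in both livers stand beside 49.2% of all protein-coding genes. Of 17 other ligand genes, 16 were found and 4 reached 1 TPM in both livers. Gdf10, a BMP-like ligand, led at 8.37 and 8.26 TPM, followed by Bmp1 at 4.96 and 5.58 TPM and Gdf3, given above. Bmp1 encodes a procollagen protease and not a BMP ligand in the strict sense. Bmp2 was at 1.69 and 1.68 TPM, and 5 genes of the list had no read: Bmp15, Gdf5, Gdf7, Mstn and Lefty2. Of 10 other receptor genes, 2 reached 1 TPM in both livers: Hfe2, the BMP coreceptor hemojuvelin, at 3.55 and 3.65 TPM, and Bambi, a decoy receptor, at 1.72 and 1.66 TPM. Neo1, the third highest, was at 0.78 and 1.00 TPM.

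Intracellular regulators were more widely transcribed than the other ligand and receptor genes. Of 12 inhibitory SMADs, ubiquitin ligases and corepressors, 9 reached 1 TPM in both livers, led by the SMAD phosphatase gene Ppm1a at 14.1 and 15.1 TPM. Wwp1, a ubiquitin ligase, was at 5.94 and 6.41 TPM and Tgif1, a corepressor, at 4.08 and 4.11 TPM. Smad7, the inhibitory SMAD induced by TGF-beta, was the lowest at 0.57 and 0.63 TPM. Of 9 SMAD partners, 6 reached 1 TPM in both livers, with Hgs at 10.8 and 13.2 TPM and the acetyltransferases Crebbp at 5.61 and 6.37 TPM and Ep300 at 5.28 and 4.10 TPM. Zfyve9, which encodes the receptor adaptor SARA, was the lowest at 0.26 and 0.35 TPM.

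Extracellular regulators were uneven. Of 14 other antagonists, 4 reached 1 TPM in both livers: Fstl1 at 13.1 and 13.5 TPM, Twsg1 at 11.7 and 12.8 TPM, Tmprss6 at 7.29 and 7.77 TPM, and Dand5. Tmprss6 encodes a protease that cleaves hemojuvelin. Cer1 had no read. Of 12 genes for storage and release of latent TGF-beta, 7 reached 1 TPM in both livers, against 49.2% of all protein-coding genes. Decorin, Dcn, was the highest at 34.2 and 33.6 TPM, followed by Thbs1, an activator of latent TGF-beta, at 19.7 and 27.7 TPM and Nrros, which anchors it on myeloid cells, at 15.4 and 15.4 TPM. Itgb6, an epithelial integrin subunit that releases TGF-beta, was at 0.04 and 0.00 TPM.

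Genes that the pathway is known to induce were read as levels, and no response was measured. Their counts at 1 TPM stand beside 49.2% of all protein-coding genes. Of 12 BMP target genes, 6 reached 1 TPM in both livers, with Id2 at 90.9 and 87.7 TPM, Id3 at 27.6 and 27.3 TPM and Id1 at 16.9 and 18.6 TPM. Hamp, which encodes hepcidin, was at 25.1 and 10.1 TPM in replicates 1 and 2 (307 and 86 reads; scaled ratio 0.371, 0.289 to 0.473). The other BMP targets with a mean of 1 TPM did not differ 1.5-fold. Msx2 had no read. Of 16 TGF-beta and activin target genes, 10 reached 1 TPM in both livers, with Fn1 at 64.4 and 69.7 TPM, Col1a1 at 25.1 and 30.8 TPM and Col1a2 at 18.6 and 23.3 TPM. Tagln, a smooth muscle gene, was at 4.13 and 2.20 TPM and the only 1 of this list to differ 1.5-fold on the log2(TPM + 1) scale. Acta2, also a smooth muscle gene, was at 10.7 and 7.02 TPM, with a scaled read ratio of 0.604 (0.530 to 0.687). The target lists share genes with the stellate and mesenchymal markers, such as Col1a1 and Col1a2, and these levels cannot be told apart from the number of those cells.

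**Figure D5:**
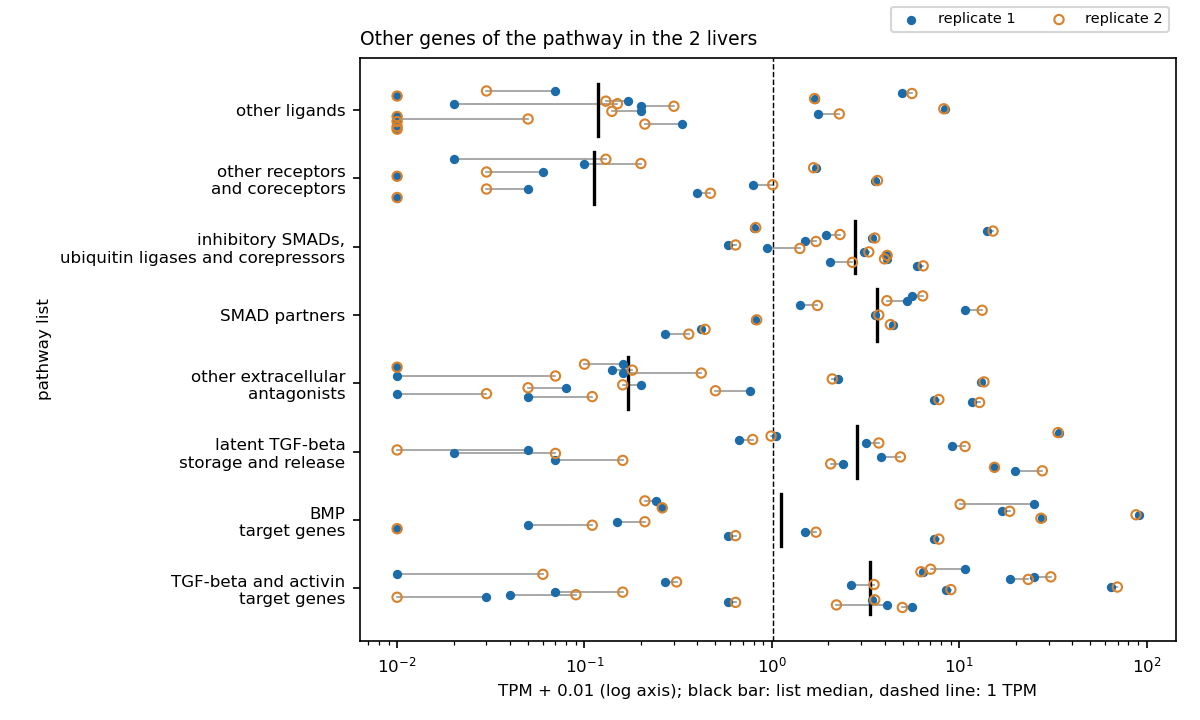
Level of each gene of 8 further pathway lists in replicate 1 (filled) and replicate 2 (open), as TPM plus 0.01 on a log axis, with the list's median as a black bar. Medians of the lists of intracellular regulators and partners lie at 2.78 and 3.64 TPM, and those of other ligands and other receptors at 0.11 and 0.10 TPM.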

How the data were processed

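Total RNA above 200 nucleotides, 10 ng per library, was sequenced from 2 livers, with spike-in RNAs added, per the labels. The authors deposited gene and transcript tables on mm10 with GENCODE M4, per the description beside the files. The aligner and counting program were not given in the sources used here. Per the file headers, expected counts (estimated reads per row) were deposited without normalization. The authors' TPM covers every row, with the spike-ins, and FPKM was deposited beside it. The percent of a gene's TPM held by each transcript was deposited in the transcript tables. Strand-specific counting is not stated. Spike-ins took 7.35% and 6.72% of reads, and rows with numeric identifiers were left out.

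Symbols, positions and transcript models came by unversioned identifier from GENCODE M21 on the same build, and promoter windows from RefSeq (GRCm38.p6), which held 30 of the 40 genes. The genes, the lists and the alternatives were chosen with earlier results of these data known. The text names all 40 genes, the 3 highest and the lowest of most further lists, some other listed genes, and transcripts. Transcripts were named where the gene's mean reached 5 TPM. Chosen after seeing the data, they were also named for some, not all, genes with a mean of at least 1.5 TPM, and for Tgfb2, Inhba and Inhbe. Gene ratios used a pseudocount of 1 TPM, a mean of 1 TPM and 50 summed reads. Read ratios used edgeR TMM factors (from rounded counts, with no test) and exact binomial 95% intervals, chosen after seeing the data. A gene with no read was given the floor of 3 reads. Reads carry no molecular identifiers here, so intervals and floors cover counting error only. The procedures were tested on simulated data. Python 3.11.15 (numpy 2.4.6, pandas 2.3.3, scipy 1.17.1, matplotlib 3.10.9) and R 4.3.3 (edgeR 4.0.16) were used.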

Additional observations from a re-analysis of the deposited data

How the results depend on the processing

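The count of 22 genes at 1 TPM in both livers fell to 12 at 2 TPM. Gdf15 was the only one of the 23 genes past the filter that differed 1.5-fold, also with a pseudocount of 0.1, on TMM-scaled CPM plus 1, on FPKM and without globin genes, and the only one of all 40 with no filter and a pseudocount of 1 TPM. Tgfb3, which did not pass the filter, had a scaled read ratio of 0.530. With a mean of 5 TPM, or with a pseudocount of 5, the number was 0, and with the latter the median difference was 0.088. Shares by expected counts, which are not scaled to length, were 54.7% for Tgfb1, 59.6% for Gdf2, 45.0% for Tgfbr1, 45.4% for Tgfbr2, 51.6% for Eng, 43.1% for Smad2, 46.4% for Smad1, Smad5 and Smad9 together, 86.6% for Ltbp1 and 54.0% for Lefty1. With TPM rescaled without globin genes the median over the 40 genes was 2.19 TPM. No paired analysis was possible because there is 1 group. With 2 livers the SD is poorly known, and 4 of the 40 genes rest on fewer than 10 reads over both livers.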

Other observations

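A list of 7 smooth muscle genes was added after the values of Tagln and Acta2 were seen. Acta2 was at 10.7 and 7.02 TPM in replicates 1 and 2, with a scaled read ratio of 0.604 (95% counting interval 0.530 to 0.687). Tagln was at 4.13 and 2.20 TPM (0.490, 0.383 to 0.623) and Actg2 at 1.98 and 1.17 TPM (0.551, 0.375 to 0.798). Myl9 was at 36.2 and 42.1 TPM (1.07, 0.990 to 1.15) and Tpm2 at 10.3 and 13.2 TPM (1.17, 1.02 to 1.34), so the list did not move as one. Myh11 was at 0.25 and 0.19 TPM (0.711, 0.464 to 1.08) and Cnn1 at 0.05 and 0.18 TPM, from 5 and 12 reads. Tgfb3, a TGF-beta ligand gene, was lower in replicate 2 as were Acta2, Tagln, Actg2 and Myh11, while Myl9, Tpm2 and Cnn1 were higher. For Myh11 and Myl9 the interval included 1. What smooth muscle cells add to the level of Tgfb3 was not tested.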
